A study of Arabidopsis thaliana with 20 samples.

Results

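Photosystem II is the light-driven enzyme of the thylakoid membrane that takes electrons from water. Its reaction centre is surrounded by small membrane subunits and fed with excitation energy by light-harvesting complex II, an antenna built of chlorophyll-binding LHCB proteins. The reaction centre is damaged by light and is continually taken apart, repaired and reassembled with the help of accessory proteins. The 4 genes described here are nuclear genes of this system in Arabidopsis thaliana: LHCB1.5 (AT2G34420), an antenna protein, PSBW (AT2G30570) and PSBY (AT1G67740), small membrane subunits of the complex, and PSB27 (AT1G03600), a lumenal protein of assembly and repair. They were taken because each was the sole gene that the array's annotation gave to a feature, and each had 1 such feature among 3439 features, of which 692 had 1 gene.

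Total RNA was compared between plants labelled hcf145, described as defective in the assembly of photosystem I, and wild-type plants (WT). Both groups are of the ecotype Wassilevskija, and each has 10 arrays, numbered 1 to 10. The titles name hcf145, whereas the source names of the same samples give gun5, a different mutant, and the group is called hcf145 here after its titles. The targeted gene could not be checked, since HCF145 (AT5G08720) and CHLH (AT5G13630), the gene mutated in gun5, were each the sole gene of 0 features. Neither the tissue, the age and growth of the plants nor the kind of mutation is given in the labels. Of the 7 markers of leaf and other tissues that were looked for, 0 were measured, so the tissue was not checked.

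The arrays fell into adjacent numbers. Within its group, each of 20 arrays deviated most like the one numbered next to it (1 beside 2, 3 beside 4, up to 9 beside 10), with a consensus correlation of 0.661 between such neighbours. Adjacent arrays were therefore averaged, and the 5 averages per group are the samples of the tests below. Nothing in the labels ties an array to a plant, so the p-values describe the spread between averages, which may be technical. Arrays 9 and 10 of both groups stood apart along the second principal component (18.29% of the variance of 2784 features), with scores of 26.3 to 29.9 against -20.6 to 4.84 on the other arrays. Values without these arrays are given where they differ. Intensities are the deposited values on a linear scale, and fold changes are differences of mean quantile-normalised log2 values, hcf145 minus WT. Of 3287 features tested in limma, 243 passed an adjusted p of 0.05, 117 higher and 126 lower in hcf145, so that 48.1% of the calls were higher. In the values as deposited 65 were higher and 291 lower (18.26% higher), and with median centring 122 were higher and 74 lower (62.2% higher). The median feature differed by -0.06 after quantile normalisation, by -0.32 as deposited and by -0.03 with median centring (log2).

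The comparison of hcf145 with WT addresses how the transcripts of photosystem II and its antenna stand in plants whose defect is said to lie in building photosystem I. Of the 4 genes, 0 passed the test on the averages, where 7.39% of all features did, and 3 had lower and 1 had higher mean normalised values in hcf145. With the array numbers as a block, LHCB1.5 passed and the other genes did not, in a fit that called 500 features. LHCB1.5 had the largest difference of the 4, with a mean intensity of 7.40 ± 2.67 in hcf145 and 17.7 ± 8.73 in WT (SD, n = 10 arrays each). The median log2 fold change of the 4 genes was -0.47, and it was -0.44 as deposited and -0.14 with median centring, beside the medians of all features given above. The small subunits and PSB27 differed less than LHCB1.5 under each of the 3 scalings. The ranges of the groups overlapped for each of the 4, as for most features. Of all features with values throughout, 4.92% lay without overlap on the arrays and 10.3% on the averages. In tissue RNA, fewer cells that express a gene and less of its RNA per cell cannot be told apart.

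**Figure D1:**
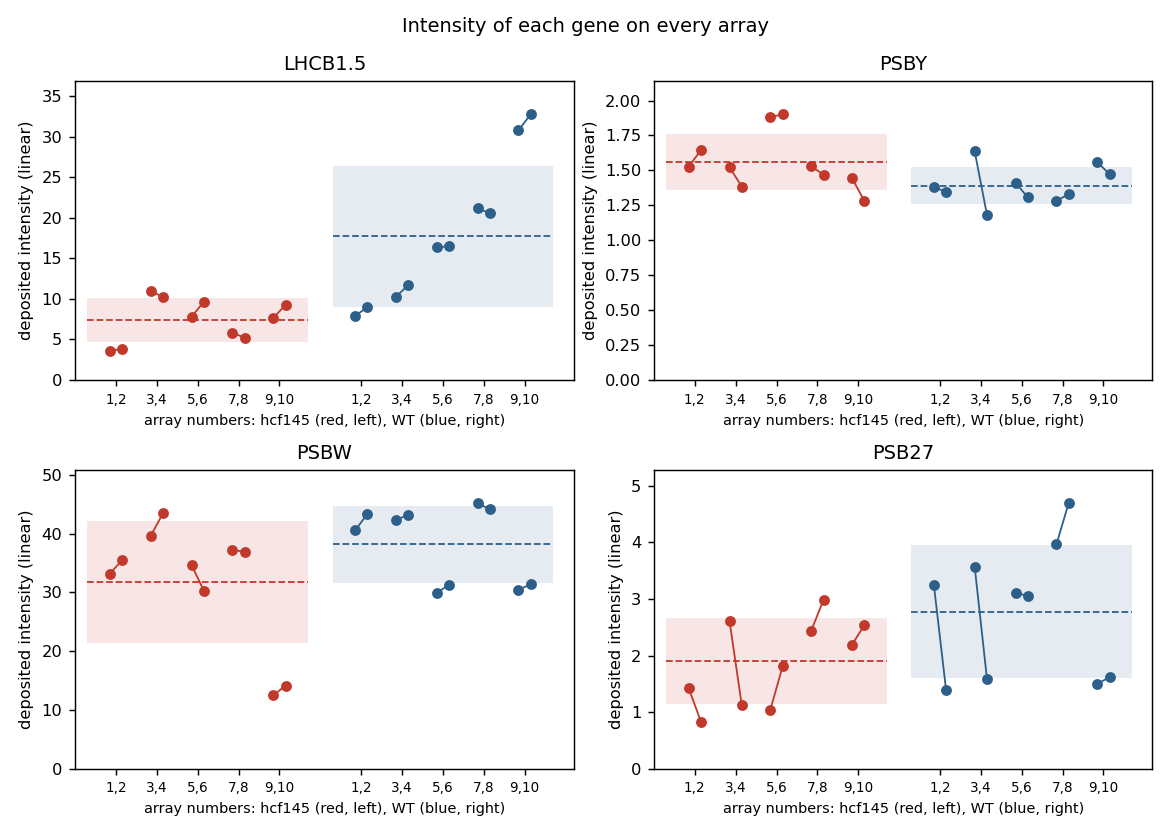
Deposited intensity (linear scale, from 0) of LHCB1.5, PSBY, PSBW and PSB27 on each array, hcf145 in red on the left and WT in blue on the right; lines join adjacent arrays, dashed lines are group means over 10 arrays and shaded bands are ± 1 SD. LHCB1.5 stands between 3.58 and 11.0 in hcf145 and between 7.90 and 32.8 in WT, and the PSBW values of hcf145 arrays 9 and 10 lie below all others.

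LHCB1.5, annotated as LHB1B2 in RefSeq, encodes one of the closely similar LHCB1 proteins that form the trimers of the major antenna. In hcf145 its intensity was 3.58 on the lowest array, 7.72 at the median and 11.0 on the highest. In WT it was 7.90 on the lowest array, 16.4 at the median and 32.8 on the highest. All 10 hcf145 arrays lay below the WT median and 6 of them below every WT array, while the other 4, highest on arrays 3 and 4 at 11.0 and 10.2, lay within the range of WT arrays 1 to 4.

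The log2 fold change of LHCB1.5 was -1.19 ± 0.39 (SE, n = 5 averages each; 95% interval -2.04 to -0.35), or 2.29-fold lower in hcf145. Adjusted over all features, the difference did not pass (limma adjusted p = 0.0840), and its unadjusted limma p was 0.00948. An exact two-sided permutation test on the 5 and 5 averages of this gene alone gave p = 0.0317, not adjusted, where 0.00794 is the smallest p it can give. With the 20 arrays counted separately LHCB1.5 was the 1 of the 4 genes that passed (limma adjusted p = 0.00285), in a fit that called 29.1% of all features. With adjacent arrays as a random block it passed as well (limma adjusted p = 0.00992), in a fit that called 425 features. With the array numbers pairing the groups as a block it also passed (limma adjusted p = 0.0351), with 500 features called against 243 in the main fit. As deposited the fold change was -1.20 (limma adjusted p = 0.0711), and with median centring it was -0.90 (limma adjusted p = 0.240). A fold change this low or lower was found for 4.02% of all features after quantile normalisation, and for 8.34% as deposited.

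The spread of LHCB1.5 was wide among the averages of each group. The coefficient of variation of the deposited intensities was 37.2% over the 5 hcf145 averages and 52.2% over the 5 WT averages. WT arrays 1 and 2 stood at 7.90 and 8.95, whereas WT arrays 9 and 10 stood at 30.8 and 32.8. Adjacent arrays lay close together, with a median gap of 0.13 on the deposited log2 scale, against 0.22 for the median feature. The spread between averages was thus wider than that within them. Without arrays 9 and 10 the means were 7.13 in hcf145 and 14.2 in WT (n = 8 arrays each), and the log2 fold change was -1.06 (limma adjusted p = 0.113). Leaving out each other adjacent pair in turn moved it between -1.46 and -1.03.

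LHCB1.5 is uncertain as the value of 1 gene. The next gene in the RefSeq annotation of assembly TAIR10.1 is AT2G34430 (LHCB1.4), another member of the family, and the files do not say which part of LHCB1.5 the feature covers. Of the 15 genes listed for light-harvesting complex II, 1 was measured on a feature of its own, 3 lay only on a feature annotated with several genes, which is not named here, and the others were not analysed here. Of the 6 genes of light-harvesting complex I and the 14 genes listed for antenna insertion, antenna phosphorylation, chlorophyll b and the GLK regulators, 0 were measured.

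PSBW, a small membrane subunit that stabilises the contact between photosystem II and its antenna, was among the brightest features on every array. It ranked between 6 and 22 from the brightest on the hcf145 arrays and between 4 and 13 on the WT arrays. Its intensity in hcf145 was 12.5 on the lowest array, 35.1 at the median and 43.4 on the highest. In WT it was 29.9 on the lowest array, 41.4 at the median and 45.2 on the highest. The low hcf145 values were those of arrays 9 and 10, at 12.5 and 14.1, and the other 8 hcf145 arrays ran from 30.3 to 43.4, against 29.9 to 45.2 on the same WT numbers.

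The log2 fold change of PSBW was -0.45 ± 0.34 (SE, n = 5 averages each; 95% interval -1.18 to 0.29), and it did not pass (limma adjusted p = 0.426). The interval covers a level in hcf145 of 0.442 to 1.22 times that in WT. Without arrays 9 and 10 the value was -0.40 (limma adjusted p = 0.317), and the mean intensities were 36.4 in hcf145 and 40.0 in WT. The size depended on the scaling, since it was -0.35 as deposited and -0.05 with median centring.

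PSBY, a small membrane subunit that lies beside cytochrome b559 in photosystem II, was the most even of the 4 genes. In hcf145 its intensity was 1.28 on the lowest array, 1.52 at the median and 1.90 on the highest. In WT it was 1.18 on the lowest array, 1.36 at the median and 1.64 on the highest. Of the hcf145 arrays, 9 of 10 lay above the WT median and 3 above every WT array. On arrays 9 and 10 PSBY stood lower in hcf145, at 1.44 and 1.28, than in WT, at 1.56 and 1.47.

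PSBY was the 1 gene of the 4 with a higher mean in hcf145, at 1.56 ± 0.200 against 1.39 ± 0.135 in WT (SD, n = 10 arrays each). The log2 fold change was 0.28 ± 0.20 (SE, n = 5 averages each; 95% interval -0.15 to 0.71) and did not pass (limma adjusted p = 0.388). The unadjusted limma p of PSBY was 0.179. The exact permutation test on the averages of this gene alone gave p = 0.0317, two-sided and not adjusted. The value was 0.16 as deposited and 0.46 with median centring. Without arrays 9 and 10 it was 0.40 (limma adjusted p = 0.162). The coefficient of variation was 13.0% over the hcf145 averages and 5.68% over the WT averages.

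PSB27 encodes a lumenal protein that takes part in the repair of photosystem II after light damage. Its intensity in hcf145 was 0.829 on the lowest array, 2.0 at the median and 2.98 on the highest. In WT it was 1.39 on the lowest array, 3.08 at the median and 4.70 on the highest. All 10 hcf145 arrays lay below the WT median, yet only 3 lay below every WT array.

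The log2 fold change of PSB27 was -0.49 ± 0.33 (SE, n = 5 averages each; 95% interval -1.22 to 0.23) and did not pass (limma adjusted p = 0.368). Of the 4 genes, PSB27 had the widest gaps between adjacent arrays. WT arrays 1 and 2 stood at 3.25 and 1.39, WT arrays 3 and 4 at 3.57 and 1.59, and hcf145 arrays 3 and 4 at 2.61 and 1.12. Its median gap between adjacent arrays was 0.54 on the deposited log2 scale, and 93.2% of all features had a smaller one. The odd-numbered arrays alone gave a fold change of -0.66 and the even-numbered arrays alone -0.32 (limma adjusted p = 0.256 and 0.697). It was -0.73 without arrays 9 and 10 (limma adjusted p = 0.188), -0.32 without arrays 5 and 6, and -0.24 with median centring.

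**Figure D2:**
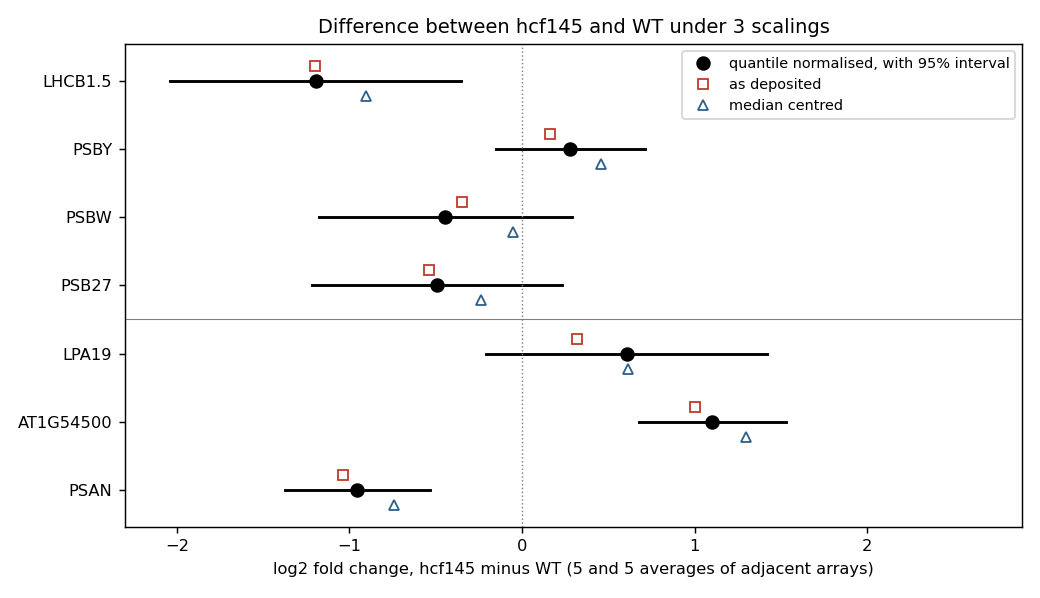
Log2 fold change, hcf145 minus WT, from the 5 and 5 averages of adjacent arrays for the 4 genes (above the line) and for the other measured genes of the photosystem lists (below it); black points are quantile-normalised values with 95% intervals, open squares are values as deposited and open triangles median-centred values. The interval of LHCB1.5 runs from -2.04 to -0.35, and those of PSBY, PSBW and PSB27 span 0.

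The antenna gene was then set against the subunits and the repair factor within the same arrays. Each array's log2 value of LHCB1.5 minus that of the other gene was averaged over adjacent arrays and compared between the groups, as a description without a p. Since the levels of different features cannot be compared, only the change of this difference between the groups is given. On the values as deposited it does not depend on any single scale factor of an array.

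Relative to PSBY, LHCB1.5 was lower in hcf145 by 2.78-fold, a difference of log2 fold changes of -1.48 ± 0.39 (SE, n = 5 averages each; 95% interval -2.37 to -0.58). As deposited it was -1.36 (95% interval -2.36 to -0.36), and without arrays 9 and 10 it was -1.46 (95% interval -2.45 to -0.47). Normalised, the 5 hcf145 averages ran from 1.13 to 2.71 and the 5 WT averages from 2.87 to 4.25, without overlap. The share of gene pairs that part in this way was not determined, and of single features 10.3% did so on the averages. The genes were chosen with earlier results known, and PSBY is the 1 with a higher mean in hcf145. As deposited the groups overlapped, at 1.22 to 2.87 in hcf145 and 2.62 to 4.39 in WT.

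Relative to PSBW the difference of log2 fold changes was -0.75 ± 0.71 (SE; 95% interval -2.38 to 0.89), and relative to PSB27 it was -0.70 ± 0.49 (SE; 95% interval -1.84 to 0.44), with n = 5 averages in each group. Both intervals span 0, so the arrays do not separate the change of the antenna gene from that of PSBW or PSB27, nor do they show that these changes are alike. The intervals, that for PSBY included, are unadjusted descriptions of genes chosen with earlier results known, and they do not serve as tests. Without arrays 9 and 10 the difference from PSBW was -0.66 (95% interval -2.15 to 0.83), and that from PSB27 was -0.32 (95% interval -1.21 to 0.57). WT arrays 9 and 10 hold the highest LHCB1.5 values of all arrays and, for PSBW and PSB27, values in the lower part of their WT range.

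**Figure D3:**
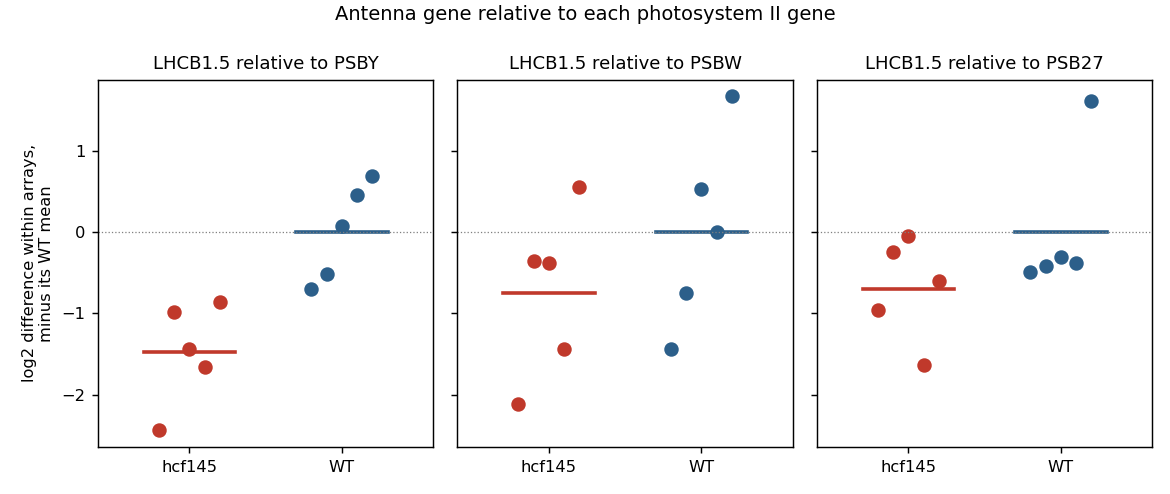
Normalised log2 value of LHCB1.5 minus that of PSBY, PSBW or PSB27, shown relative to the WT mean of the difference (points are the 5 averages of adjacent arrays per group, bars their means; hcf145 red, WT blue). The groups part without overlap for PSBY, and overlap for PSBW and PSB27. Of single features, 10.3% part without overlap on the averages.

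Of the 13 genes listed as photosystem II subunits, 2 were measured, PSBW and PSBY, and of the 28 genes listed for its assembly and repair, 3 were measured, PSB27, LPA19 and AT1G54500. Of these 5 genes, 1 rose, 0 fell and 4 did not pass, where 7.39% of all features passed and 3.56% passed as higher in hcf145. LPA19 (AT1G05385), annotated as Psb27-H1, is a relative of PSB27 that acts in the assembly of photosystem II. It had an intensity of 0.283 on the lowest, 0.457 at the median and 1.41 on the highest hcf145 array, and of 0.309, 0.394 and 0.624 in WT. The 2 highest values were those of hcf145 arrays 9 and 10, at 1.24 and 1.41. LPA19 did not pass, with a log2 fold change of 0.61 ± 0.37 (SE, n = 5 averages each; limma adjusted p = 0.322), or 0.52 without arrays 9 and 10 (limma adjusted p = 0.120). As deposited its fold change was 0.32 (limma adjusted p = 0.592), and with median centring it was 0.61. The signs of the PSB27 and LPA19 values were opposite under each of the 3 scalings.

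AT1G54500, listed as RBD1 and without a name in the RefSeq annotation, rose in hcf145. Its intensity was 1.86 on the lowest, 2.09 at the median and 3.08 on the highest hcf145 array, against 0.909, 1.1 and 1.31 in WT. Every hcf145 array lay above every WT array, as 4.92% of features lay without overlap in either direction, and so did the averages, as for 10.3% of features. The log2 fold change was 1.1 ± 0.20 (SE, n = 5 averages each; 2.15-fold, limma adjusted p = 0.0113), and 3.56% of all features passed in this direction. It was 1.0 as deposited and 1.3 with median centring (limma adjusted p = 0.0188 and 0.00684). The call was lost without arrays 3 and 4, 5 and 6 or 7 and 8 (limma adjusted p = 0.0523, 0.0820 and 0.0713). Without arrays 9 and 10 the fold change was 1.03 (limma adjusted p = 0.0164).

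PSAN (AT5G64040), a lumenal subunit of photosystem I and the 1 measured gene of the 12 listed for that complex, gives a point of comparison for LHCB1.5. Its log2 fold change was -0.95 ± 0.19 (SE, n = 5 averages each; limma adjusted p = 0.0197), and the SE of LHCB1.5 was 0.39. The coefficient of variation of PSAN was 10.8% over the hcf145 averages and 17.2% over the WT averages, against 37.2% and 52.2% for LHCB1.5. The call of PSAN was lost with median centring (limma adjusted p = 0.106) and in each fit that left out 1 adjacent pair other than arrays 9 and 10 (limma adjusted p = 0.0598 to 0.110). The difference between the fold changes of LHCB1.5 and PSAN was not tested.

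The single-gene features with the most similar patterns were sought for each of the 4 genes by Pearson correlation of normalised log2 values over the 20 arrays, among 542 features without a missing value. The arrays share the group difference and the deviations of adjacent arrays, so the correlations are descriptions. Since the group difference entered the choice, features of this kind are favoured to pass when the gene itself differs. A call among them is therefore no separate result, and 7.39% of all features passed. LHCB1.5 was most like AT3G09080 (r = 0.892), AT1G21660 (r = 0.819) and LpxA (AT4G29540, r = 0.814). Within the groups, after the group means were taken out, these correlations were 0.830, 0.589 and 0.772. Of these, AT1G21660 passed the test, at an intensity of 0.820 ± 0.319 in hcf145 and 2.17 ± 0.719 in WT (SD, n = 10 arrays each), with a limma adjusted p of 0.0246 and a log2 fold change of -1.28 ± 0.28 (SE).

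PSBW was most like OTP85 (AT2G02980, r = 0.910), PRA1.B6 (AT5G07110, r = 0.872) and AT1G51080 (r = 0.866), and the correlations within the groups were 0.912, 0.846 and 0.838. On the hcf145 arrays 9 and 10 these 3 features were low together with PSBW. PSBY was most like AT5G58330 (r = 0.836), AT2G26110 (r = 0.699) and AT4G29890 (r = 0.689), and within the groups the correlations were 0.73, 0.47 and 0.43. AT2G26110, chosen in the same way with the group difference left in, rose in hcf145 (log2 fold change 1.09 ± 0.20 SE, n = 5 averages each, limma adjusted p = 0.0146). PSB27 had the weakest likenesses over the 20 arrays, with r = 0.643 for AT1G11470, 0.625 for AT1G50880 and 0.599 for AT1G02020. Within the groups these correlations were 0.599, 0.587 and 0.604, above those of PSBY with AT2G26110 and AT4G29890. The features most like LHCB1.5, PSBW, PSBY and PSB27 differed for each gene.

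**Figure D4:**
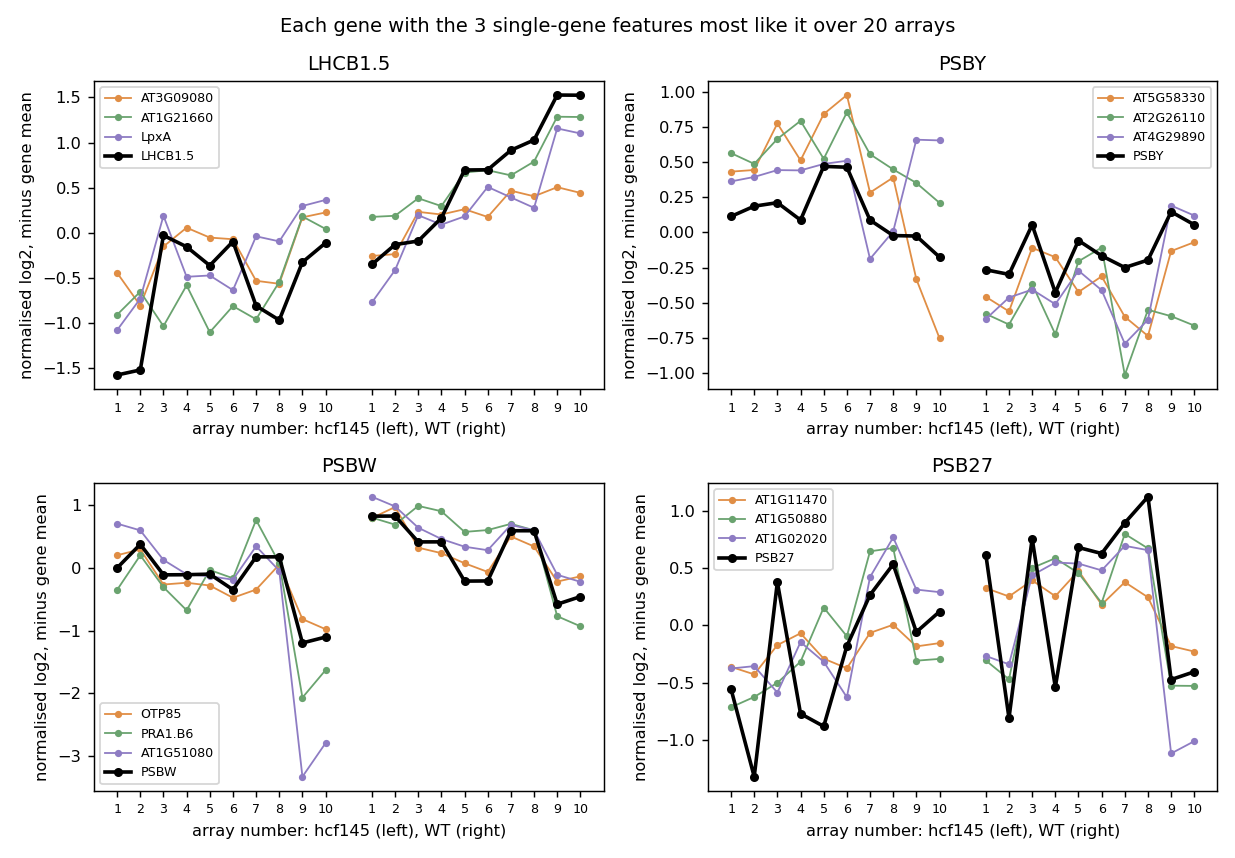
Normalised log2 value minus each gene's mean on the hcf145 arrays (left block) and the WT arrays (right block) for LHCB1.5, PSBY, PSBW and PSB27 (black) and the 3 single-gene features most like each (coloured). LHCB1.5 is lowest on hcf145 arrays 1 and 2 and highest on WT arrays 9 and 10, PSBW and its 3 features are lowest on hcf145 arrays 9 and 10, and PSB27 swings between adjacent numbers.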

How the data were processed

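The values are intensities that the authors deposited as 1 table, per the file headers with a column for each of 20 arrays; their unit, linear intensity, was read from the values (sums of 3319 to 3640 per array, 120 to 248 zeros per array, an upper limit of 100). The limit of 100 was reached on each hcf145 array and on no WT array, where the maxima were 70.8 to 90.4. Zeros numbered 120 to 248 on the hcf145 arrays and 125 to 150 on the WT arrays. The quantification, scaling and cap of the values, like the kind of array, are not given in the sources used here. Arrays were grouped by their titles. Genes were named through the platform's annotation (692 features with 1 gene, 870 with several, 1877 with none), and 690 of the 692 matched RefSeq genes of TAIR10.1, used for names and neighbours only.

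Values of 0 counted as missing; the others were log2-transformed and quantile normalised. A feature needed 5 values in each group, which 152 lacked and 3287 had. Adjacent arrays were averaged and tested with limma 3.58.1 in R 4.3.3 (lmFit and eBayes, two-sided, with group as sole term), with Benjamini-Hochberg adjustment over the 3287 features at 0.05. This follows from the correlation of adjacent arrays; earlier work on these data counted 20 arrays. Intervals are at 95%, from limma for fold changes and from the pooled variance of the averages for differences between genes. The number of arrays limits the precision.

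Same-numbered arrays of the 2 groups correlated at 0.0882 to 0.432 in their deviations, and same-numbered averages at 0.0846 to 0.524. Not every number passed the limit of 0.1, so the numbers were not taken to pair the groups in the main fit. Still, 4 of the 5 hcf145 averages correlated best with the WT average of their own number. A fit with the number as a block is therefore given beside the main fit. The named genes are the 4 members, the measured genes of 7 lists, and the 3 features most like each member. Members, lists and tests were chosen with earlier results of these data known. Alternatives were the treatment of adjacent arrays, the scaling, zeros, dim features, missing values, variances and weights, a block for the number, and leaving out each adjacent pair. Those for LPA19, AT1G54500 and PSAN were added after seeing the data.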

Additional observations from a re-analysis of the deposited data

Results flagged for a closer look

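LPA19 stood far from the rest of its group on 1 average: on hcf145 arrays 9 and 10 its normalised log2 value was 0.40, while the other 4 hcf145 averages lay between -1.29 and -0.95. It was 1 of 28 groups of arrays or averages examined for 7 genes, and chance gives about 1 in 20. The WT average of arrays 9 and 10 was also the highest WT value of LPA19, at -0.55.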

How the results depend on the processing

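The 4 genes kept the sign of their fold changes in each of 18 limma alternatives. In some of these the fold change equals that of the main fit by construction, so the sign could not change. They are 20 separate arrays, a random block, the replicate block, robust variances, the dimmest 25% left out and features without missing values. LHCB1.5 ran from -1.46 to -0.90, PSBY from 0.16 to 0.46, PSBW from -0.55 to -0.05 and PSB27 from -0.73 to -0.24. PSBY, PSBW and PSB27 passed in 0 of the 18 (lowest limma adjusted p = 0.0779, 0.122 and 0.118). LHCB1.5 passed in 6 of them, at -1.19 with 20 separate arrays, a random block, the dimmest 25% left out (limma adjusted p = 0.0480), an intensity trend with robust variances (limma adjusted p = 0.0482) or the replicate block (limma adjusted p = 0.0351), and at -1.17 with a pseudocount (limma adjusted p = 0.0491). Its limma adjusted p ran from 0.00285 to 0.259 over all 18; the cause was not tested. The exact permutation tests of LHCB1.5 (-1.19) and PSBY (0.28) fell below 0.05 unadjusted, which is not the threshold of the main test. For PSBY the unadjusted limma p was 0.179. The differences between LHCB1.5 and the other genes kept their sign, moving by less than 1 SD, and they too were fixed in the alternatives that leave the fold changes unchanged. With the replicate block, 500 features passed in place of 243, and 4 of the 5 hcf145 averages correlated best with the WT average of their own number. The count was 956 with 20 separate arrays, 425 with a random block, 153 and 140 with the odd- or even-numbered arrays alone and 572 with array weights. Leaving out 1 adjacent pair it ran from 24 to 308, where fewer averages were tested: it was 93 without arrays 1 and 2, 51 when arrays 3 and 4 were left out, 30 when arrays 5 and 6 were, and 24 when arrays 7 and 8 were.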
